A study of Mus musculus with 4 samples.

Results

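The homeostatic astrocyte genes described here were Aqp4, Slc1a2, Slc1a3, Gja1, Gjb6, Aldh1l1, Glul, S100b, Aldoc and Mertk. They were listed by symbol for what astrocytes do in the resting brain. The rule uses no measured value, but the list was drawn up with earlier results of these data known. The symbols were matched to the gene identifiers of the count table. All 10 listed genes were found among the 12700 genes of the table. RNA was sequenced from mice lacking iduronate 2-sulfatase (Ids-ko, genotype Ids-/-), the model of mucopolysaccharidosis type II or Hunter syndrome, and from wild type (wt) littermates, all of strain C57BL/6 and 9 months old. Each brain was divided into Cx, the cerebral cortex (neocortex), and M, which held the hippocampus and midbrain together with a diencephalic block that included the striatum. The 4 conditions were CxH (Cx, Ids-ko), CxWT (Cx, wt), MH (M, Ids-ko) and MWT (M, wt). Each was 1 library made from RNA of 7 mice pooled, so there were no replicates and no variation between mice could be measured.

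Astrocytes keep the fluid around neurons constant. They clear glutamate from synapses through sodium-dependent transporters and turn it into glutamine, move water and potassium toward blood vessels through channels in their endfeet, and are joined to each other by gap junctions made of connexins. They also supply neurons with products of glucose breakdown and engulf synapses and debris. Astrocytes of different brain areas are known to carry these genes at different levels.

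Before the astrocyte genes were read, the libraries were compared with their labels. Ids, the disrupted gene, had, in reads per 1000000 aligned reads (RPM), 135 in CxH, 368 in MH, 354 in CxWT and 155 in MWT, so in M the library labelled Ids-ko held more Ids reads than the one labelled wt. Of the 15 neocortical projection neuron markers, 13 were called up in CxH vs. CxWT and 13 in MH vs. MWT, and their summed level was 2303 and 2138 RPM in CxH and MH and 500.3 and 446 RPM in CxWT and MWT. The 17 thalamic, hypothalamic and midbrain markers in the table went the other way, at 56.9 and 75.4 RPM against 678 and 620.2 RPM, and in MH 1 of them was at 0. The 10 striatal markers summed to 1222 RPM in CxH and 1039.7 in MH, against 491 in CxWT and 478 in MWT, with 8 called up and 1 down in MH vs. MWT, and the 6 hippocampal markers in the table summed to 85.8 to 145 RPM, highest in MH. The neocortical markers were thus low in CxWT, and the thalamic, hypothalamic and midbrain markers low in MH. The striatal and hippocampal markers were not low in MH, while the striatal markers were lower in CxWT and MWT. Ids divided the libraries by neither label. The neocortical markers divided them as the genotype label does, and not as the area label does. In CxH vs. CxWT and in MH vs. MWT, Ids and the area markers both differed, and their parts cannot be told apart. Ids differed between CxH and MH (log2 ratio -1.44) and between CxWT and MWT (1.19), where none of the neocortical markers was called and 4 of the 17 thalamic, hypothalamic and midbrain markers were called in each pair. Ids was close in MH vs. CxWT (0.06) and in CxH vs. MWT (-0.20), where 12 and 13 neocortical markers were called up. All libraries are named below by their labels, and all 6 pairs are given. Gene-assigned reads came to 23475080 in CxH, 22057807 in MH, 20266394 in CxWT and 16380080 in MWT.

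A ratio is the log2 of RPM in the first library over RPM in the second, and each ± is its standard error from counting alone. A call, up or down, needed a p-value under 0.05 in a likelihood ratio test that treats the reads as Poisson, together with a ratio of 0.7 or more in size. With 1 library per condition such a call compares 2 libraries and not 2 genotypes or areas, and no p-value is given. Intervals of RPM are 95% exact Clopper-Pearson intervals and also cover counting error only. In whole tissue, fewer astrocytes and less RNA per astrocyte cannot be told apart.

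The sequences upstream of 3 of the 4 genes that were called between libraries are shown, all but Aqp4, Slc1a2 and Mertk up in CxH vs. CxWT and S100b down in MH vs. MWT. Each line gives the 250 bases before the start site in RefSeq, in the gene's own direction, on build GRCm38.p6, a later build than the mm9 of the counts. Capitals mark matches on either strand to the NFI half-site (TTGGCA), the SOX site (ACAANG) or the GC box (GGGCGG), motifs of factor families active in astrocytes or, for the GC box, in many genes. The windows lie at chr2:102706188-102706437 (strand +) for Slc1a2, chr10:76253586-76253835 (strand +) for S100b and chr2:128698665-128698914 (strand +) for Mertk.
Slc1a2: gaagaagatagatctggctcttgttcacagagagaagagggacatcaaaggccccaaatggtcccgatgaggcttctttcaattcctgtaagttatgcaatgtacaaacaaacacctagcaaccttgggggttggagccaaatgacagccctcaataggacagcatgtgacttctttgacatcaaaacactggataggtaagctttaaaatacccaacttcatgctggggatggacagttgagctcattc
S100b: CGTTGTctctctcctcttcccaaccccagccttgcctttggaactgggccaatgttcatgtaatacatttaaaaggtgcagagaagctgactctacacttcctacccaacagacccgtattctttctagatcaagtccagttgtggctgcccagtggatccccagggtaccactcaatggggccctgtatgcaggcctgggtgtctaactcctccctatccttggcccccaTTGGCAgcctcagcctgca
Mertk: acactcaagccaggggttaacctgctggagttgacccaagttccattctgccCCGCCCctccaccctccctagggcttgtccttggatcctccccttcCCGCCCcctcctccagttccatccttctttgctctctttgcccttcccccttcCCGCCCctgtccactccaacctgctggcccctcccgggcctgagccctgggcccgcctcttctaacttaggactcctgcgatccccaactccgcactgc
The Slc1a2 window held none of the 3 motifs. The S100b window held 1 NFI half-site and 1 SOX site, and the Mertk window held 3 GC boxes, all on the opposite strand. Over the 32851 windows of this length in the same table, 12.3% held the NFI half-site, 36.3% the SOX site and 32.7% the GC box. Windows of 9 of the 10 genes, without Aqp4, were searched, of which 2 held an NFI half-site, 2 a SOX site and 5 a GC box. GC content was 44.8% in the Slc1a2 window, 53.6% in that of S100b and 63.6% in that of Mertk, where the median of all windows was 52.4%. A match is a description of the letters and was not tested as a binding site.

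All 10 genes were well covered, from 603 reads for Mertk in MWT to 59017 reads for Slc1a2 in CxH. Together they took 0.766% of the reads on genes in CxH, 0.688% in MH, 0.616% in CxWT and 0.745% in MWT. Per kilobase of the longest protein-coding transcript, Glul, the glutamine synthetase, had the highest level in every library, between 343 and 432 RPM per kilobase. Aldoc followed in every library at 238 to 337 RPM per kilobase, and Mertk was last at 4.74 to 9.66 RPM per kilobase. Of the places between them, those of Slc1a3 and Aldh1l1 were the same in every library, and the others were taken by different genes. S100b stood in the third place in CxWT and MWT and in the fifth in CxH and MH, while Slc1a2 stood in the fifth place in CxWT and MWT and in the third in CxH and MH. With the length of all exons of a gene in place of the longest transcript, 2 to 4 of the genes changed place in a library.

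**Figure D1:**
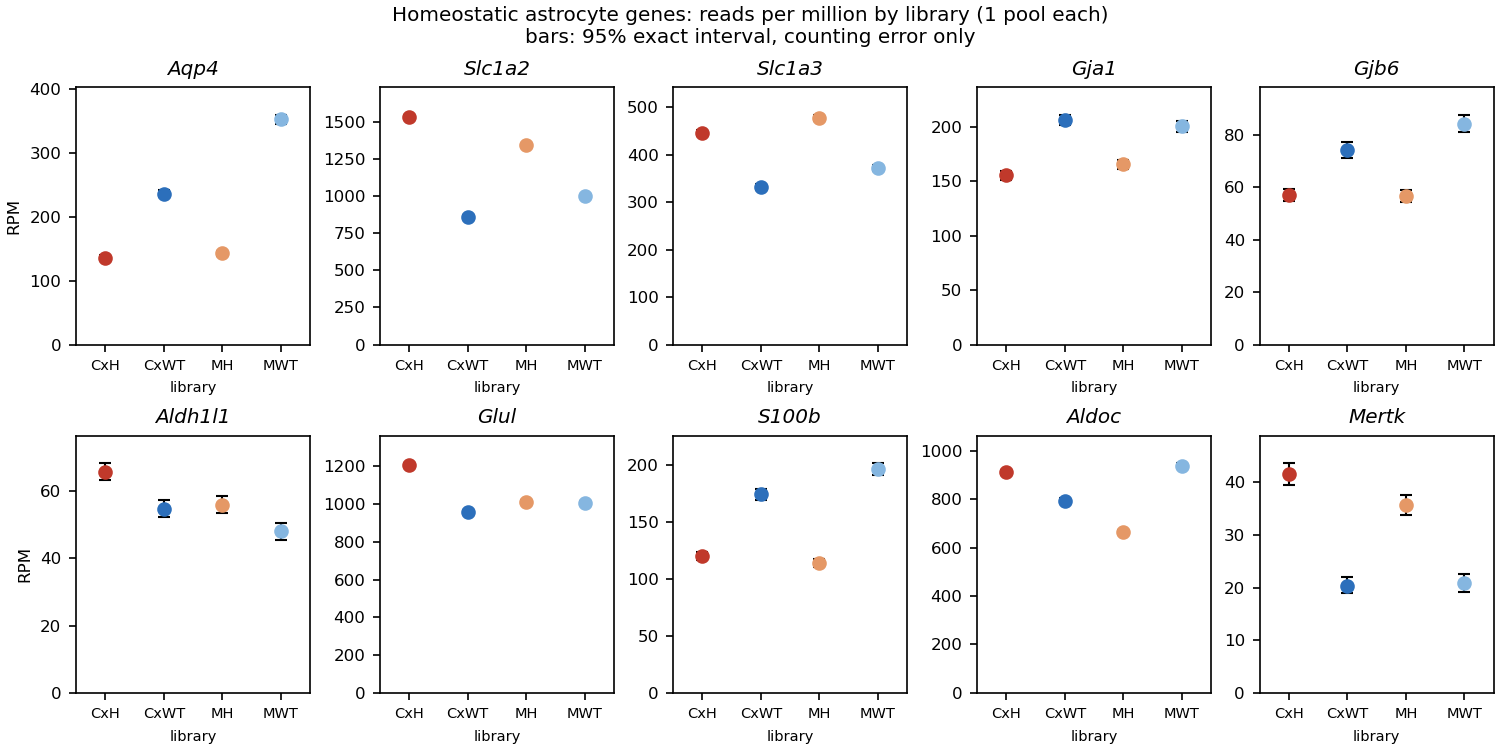
Each panel plots the RPM of 1 gene (y axis, from 0) in each of the 4 libraries (x axis), with bars for the 95% exact interval from counting. Aqp4, Gjb6 and S100b were lower in CxH and MH than in CxWT and MWT, Slc1a2, Slc1a3 and Mertk were higher, and Aldoc was lowest in MH.

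Between the libraries labelled Ids-ko and wt the genes did not move together. In CxH vs. CxWT, Slc1a2 and Mertk were called up and Aqp4 down, or 2 up and 1 down of 10, where 9.46% of all 12700 genes were called up and 11.5% down. In MH vs. MWT, Mertk was called up and Aqp4 and S100b down, or 1 up and 2 down, where 12.3% of all genes were called up and 12.7% down. Counts this small are near the shares of all genes. The median log2 ratio of the 10 genes was 0.23 in Cx and -0.13 in M, beside -0.09 and -0.07 for all genes. The median size of the ratio, without its sign, was 0.42 in Cx and 0.46 in M, beside 0.34 and 0.40 for all genes. The sign was the same in Cx and in M for 9 of the 10 genes, and for 72.8% of all genes. Aldoc was the exception. With column totals Glul also differed in sign, which left 8 genes, and with the correction for GC content and length described below Gja1 and Aldh1l1 did, which left 7.

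Between the libraries labelled Cx and M the differences were smaller. None of the 15 neocortical markers was called in these pairs, so a difference between the areas themselves cannot be read from them. In CxH vs. MH none of the 10 genes was called, where 2.43% of all genes were called up and 1.06% down, and their ratios ran from -0.10 for Slc1a3 to 0.46 for Aldoc. In CxWT vs. MWT none was called either, where 5.43% were called up and 2.11% down, and the ratios ran from -0.58 for Aqp4 to 0.19 for Aldh1l1. The median size was 0.15 and 0.18, below the 0.20 and 0.24 of all genes. Each of these ratios stayed under the 0.7 that a call needs.

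The remaining pairs differ in both labels. In CxH vs. MWT, both low in Ids, 1 gene (Mertk) was called up and 2 (Aqp4 and S100b) down, where 15.6% of all genes were called up and 15.1% down. In MH vs. CxWT, both high in Ids, 1 gene (Mertk) was called up and 1 (Aqp4) down, where 6.41% were called up and 8.89% down. The pairs share libraries, so that these counts are not independent of those above. Of the 30 neighbouring steps in the order of the libraries within a gene, 7 had intervals that overlapped, and for 3 genes (Slc1a2, Slc1a3 and Aldoc) the intervals of all 4 libraries were apart. Over all genes, 61.3% of such steps overlapped and 10.4% of genes had all 4 intervals apart. These shares were 47.3% and 17.9% over the 6415 genes with at least 500 reads in each library. Intervals narrow with more reads, and the shares were not matched to the depth of the 10 genes.

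**Figure D2:**
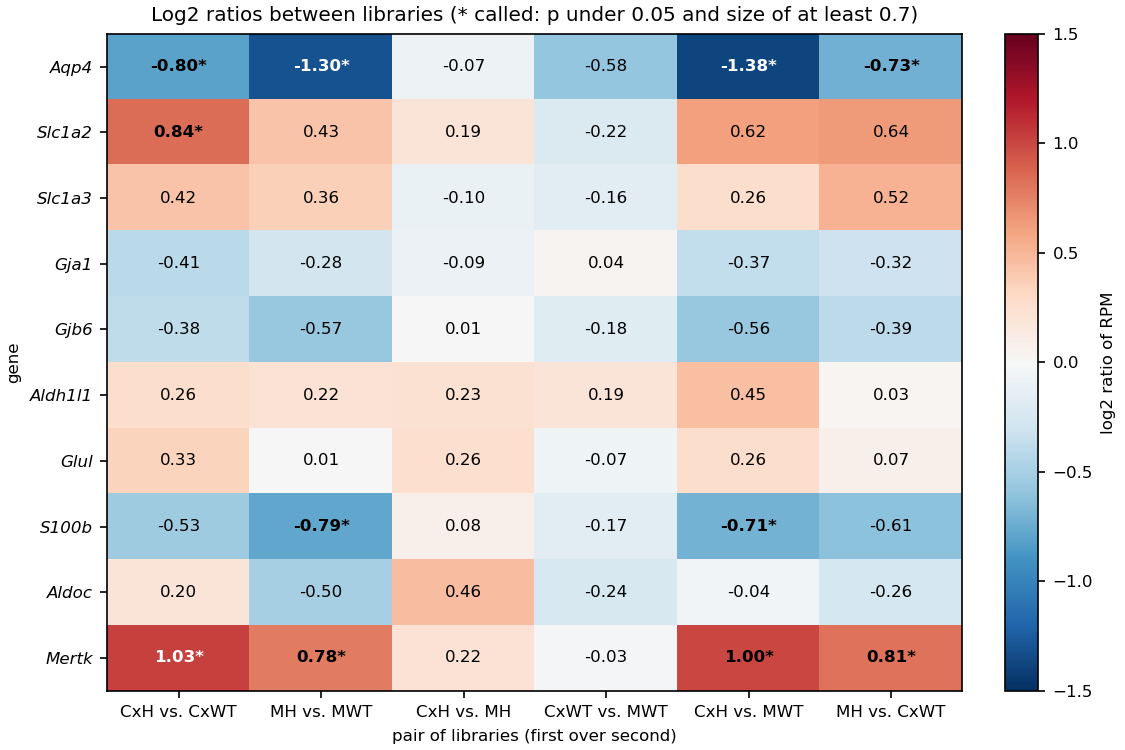
Rows are the 10 genes and columns the 6 pairs of libraries, and colour and text give the log2 ratio of the first library over the second, with an asterisk on calls. Calls stand in the rows of Aqp4 and Mertk (4 pairs each), S100b (2) and Slc1a2 (1), and none stands in CxH vs. MH or CxWT vs. MWT.

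Slc1a2 and Slc1a3, the main glutamate transporters of astrocytes (GLT-1 and GLAST), were higher in CxH and MH than in CxWT and MWT. Slc1a2 lies on chromosome 2 from 102498816 to 102630941 (mm9, plus strand), and 189 of its exon bases are shared with the antisense transcript Gm13872. It had 1533 RPM (95% interval 1520.5 to 1545) in CxH, 1339.8 (1328 to 1352) in MH, 859 (849 to 869) in CxWT and 997 (986 to 1009) in MWT. The intervals of the 4 libraries were all apart, with CxH highest and CxWT lowest. The log2 ratio was 0.84 ± 0.010 in CxH vs. CxWT, a call, and 0.43 ± 0.011 in MH vs. MWT, not a call. Slc1a3, on chromosome 15 from 8584124 to 8660764 (minus strand), had 446 RPM (439 to 453) in CxH, 477 (470.0 to 484) in MH, 332 (326 to 338) in CxWT and 372 (365 to 379) in MWT. Its ratios, 0.42 ± 0.018 in Cx and 0.36 ± 0.018 in M, had the direction of Slc1a2 and did not reach 0.7. The level of Slc1a2 over that of Slc1a3 per kilobase, a measure free of the library totals, was 1.23 in CxH, 1.01 in MH, 0.928 in CxWT and 0.963 in MWT. This rests on the longest transcripts. With the length of all exons Slc1a2 lay above Slc1a3 in every library, at 65.3 against 38.9 RPM per kilobase in CxWT.

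Glul makes glutamine from the glutamate that the transporters bring in. It lies on chromosome 1 from 155747074 to 155756853 (plus strand), and had 1206 RPM (1195 to 1217) in CxH, 1009.5 (999 to 1019.8) in MH, 959 (949 to 969.6) in CxWT and 1005 (993 to 1017) in MWT. CxH alone stood above the others, and MH and MWT had overlapping intervals. Its ratio was 0.33 ± 0.010 in Cx and 0.007 ± 0.011 in M, the latter -0.05 when scaled by column totals, and its range over the 4 libraries was 1.26-fold. A copy elsewhere in the genome matches 48.6% of the Glul transcript at 95% identity or more, and reads that fit both places may have been counted for neither. Per kilobase, Glul over Slc1a2 was 3.27 in CxH and 3.13 in MH, against 4.64 in CxWT and 4.19 in MWT.

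Of 12 other genes of transmitter uptake and amino acid handling, 2 were called up and 2 down in CxH vs. CxWT, and 1 up and 2 down in MH vs. MWT, with medians of -0.25 and -0.17. Slc6a11, the GABA transporter GAT-3, had 125 RPM in CxH, 98.1 in MH, 406 in CxWT and 371 in MWT, and was called down in both areas at -1.70 ± 0.024 and -1.92 ± 0.028. Slc6a9, the glycine transporter GlyT1, was also called down in both, at -1.46 ± 0.038 and -0.86 ± 0.046. Gldc, a subunit of the glycine cleavage system, was called up in both at 1.78 ± 0.099 and 1.42 ± 0.107, from 7.97 to 27.4 RPM over the libraries. Prodh, the proline dehydrogenase, was called up in Cx at 0.91 ± 0.067 and had 0.20 ± 0.073 in M.

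The connexins Gja1 (connexin 43) and Gjb6 (connexin 30), which form the gap junctions between astrocytes, were lower in CxH and MH than in CxWT and MWT, and neither was called in any pair. Gja1, on chromosome 10 from 56097106 to 56110225 (plus strand), had 155 RPM (151 to 159) in CxH, 166 (161 to 169.7) in MH, 206 (201 to 211) in CxWT and 200.3 (195 to 206) in MWT. Gjb6, on chromosome 14 from 57742140 to 57752448 (minus strand), had 57.0 RPM (54.6 to 59.4) in CxH, 56.6 (54.2 to 59.1) in MH, 74.2 (71.3 to 77.2) in CxWT and 84.2 (80.9 to 87.6) in MWT. The intervals overlapped between CxWT and MWT for Gja1 and between CxH and MH for Gjb6. The log2 ratios were -0.41 ± 0.025 in Cx and -0.28 ± 0.026 in M for Gja1, and -0.38 ± 0.042 and -0.57 ± 0.043 for Gjb6. The correction for GC content and length turned Gja1 to 0.01 in MH vs. MWT and to 0.08 in CxH vs. MWT. Per kilobase, Gja1 over Gjb6 was 1.85 in CxH, 1.98 in MH, 1.88 in CxWT and 1.61 in MWT.

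Aqp4, the water channel of the astrocyte endfeet, varied over a 2.60-fold range, the widest of the 10 genes as counted but not after the correction for GC content and length, where Mertk reached a ratio of 1.11 and Aqp4 one of -1.0. It lies on chromosome 18 from 15547903 to 15562193 (minus strand). It had 136 RPM (132 to 139.7) in CxH, 143 (139 to 147) in MH, 237 (232 to 242) in CxWT and 353 (346 to 360.1) in MWT. CxH and MH had overlapping intervals and lay below the other two libraries. Aqp4 was called down in CxH vs. CxWT at -0.80 ± 0.026, in MH vs. MWT at -1.30 ± 0.024, at -0.73 ± 0.026 in MH vs. CxWT and at -1.38 ± 0.025 in CxH vs. MWT. In CxWT vs. MWT it had -0.58 ± 0.022, and in CxH vs. MH -0.07 ± 0.028. With the correction for GC content and length described below, the ratio in CxH vs. CxWT was -0.42 and no longer a call, that in MH vs. MWT was -1.0 and that in CxH vs. MWT was -0.78. The call in MH vs. CxWT was lost under each of 3 other scalings and the correction, at -0.696 to -0.617. An exact test that assumes a coefficient of variation of 0.2 between pools did not call Aqp4 in CxH vs. CxWT or in MH vs. CxWT. Per kilobase, Aqp4 over Slc1a2 was 0.201 in CxH and 0.242 in MH, against 0.624 in CxWT and 0.801 in MWT.

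Among 6415 genes that reached 500 reads in each library, those whose profile over the 4 libraries lay nearest to Aqp4 were Nxt2, Vbp1, Sccpdh, Dnajb9 and Slc39a12, with root mean square differences of 0.035 to 0.079 on the log2 scale after centring each gene. Slc39a12, a zinc transporter, belongs to the list of astrocyte identity genes, and had 44.0 RPM in CxH, 40.1 in MH, 73.1 in CxWT and 103 in MWT. Nxt2 had 18.2 RPM in CxH, 20.1 in MH, 31.2 in CxWT and 46.7 in MWT. The likeness rests on 4 libraries and is a description.

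Of 13 other genes of water, ion and junction handling in astrocytes, 1 was called up and 3 down in CxH vs. CxWT, and 2 up and 3 down in MH vs. MWT, with medians of -0.06 and -0.19. The 3 called down in both areas serve potassium and bicarbonate. Kcnj10 (Kir4.1), the inward rectifier through which astrocytes take up potassium, had 230.0 RPM in CxH, 181 in MH, 413 in CxWT and 412 in MWT, with ratios of -0.84 ± 0.020 in Cx and -1.19 ± 0.022 in M. Kcnj16 (Kir5.1), which assembles with it, had -0.94 ± 0.049 and -1.07 ± 0.048. Slc4a4, a sodium bicarbonate cotransporter, had -0.86 ± 0.025 and -1.14 ± 0.026. Trpv4, a cation channel, was called up in both areas, at 1.64 ± 0.216 and 1.29 ± 0.239, on 48 to 203 reads.

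Aldh1l1 and Aldoc are enzymes used to mark astrocytes, the former of folate metabolism and the latter of glycolysis (aldolase C). Aldh1l1, on chromosome 6 from 90436421 to 90550197 (plus strand), had 65.7 RPM (63.1 to 68.3) in CxH, 56.0 (53.6 to 58.4) in MH, 54.7 (52.2 to 57.2) in CxWT and 48.0 (45.5 to 50.6) in MWT, and 499 of its exon bases are shared with the antisense transcript Gm15756. Its ratios were 0.26 ± 0.044 in Cx and 0.22 ± 0.050 in M, and the latter turned to -0.08 with the correction for GC content and length. Aldoc, on chromosome 11 from 78136470 to 78141283 (plus strand), had 911 RPM (901 to 920.2) in CxH, 663 (655 to 671) in MH, 794 (785 to 804) in CxWT and 938 (927 to 949) in MWT. The sign of Aldoc differed between the pairs, with a ratio of 0.20 ± 0.012 in Cx and of -0.50 ± 0.013 in M. Ids also changed sign between them, at -1.39 ± 0.024 and 1.24 ± 0.025. The difference between the Aldoc ratios could not be tested. MH was its lowest library and the intervals of all 4 were apart. Per kilobase, Aldoc over Aldh1l1 was 20.8 in CxH, 17.7 in MH, 21.8 in CxWT and 29.3 in MWT.

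Of 20 other genes of energy and lipid metabolism, 4 were called up and 3 down in CxH vs. CxWT, and 2 up and 4 down in MH vs. MWT, with medians of 0.10 and -0.32. Dio2, the deiodinase that makes active thyroid hormone in glia, had 108 RPM in CxH, 121 in MH, 54.0 in CxWT and 58.3 in MWT, and was called up in both areas at 1.0 ± 0.041 and 1.05 ± 0.041. Ppp1r3g, a glycogen-targeting phosphatase subunit, was called up at 1.29 ± 0.119 and 2.0 ± 0.145. Fabp7, a fatty acid binding protein of glial cells, was called down at -0.79 ± 0.096 and -1.40 ± 0.086. Dbi, the acyl-CoA binding protein, was called down in M at -1.66 ± 0.065 and had -0.18 ± 0.062 in Cx.

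S100b, a calcium-binding protein of astrocytes, is also made by oligodendrocytes. It lies on chromosome 10 from 75716598 to 75723904 (plus strand), and had 121 RPM (117 to 124) in CxH, 114 (111 to 118) in MH, 174 (170.0 to 179) in CxWT and 197 (192 to 202) in MWT. CxH and MH overlapped and lay below CxWT and MWT. The log2 ratio was -0.53 ± 0.028 in CxH vs. CxWT, not a call, and -0.79 ± 0.029 in MH vs. MWT, a call. It was also called down in CxH vs. MWT at -0.71 ± 0.029. Both calls were lost with the correction for GC content and length, at -0.48 and -0.42, and with the same exact test. All 12 oligodendrocyte markers had negative ratios in both areas, and 10 of them were called down in Cx and 7 in M, with medians of -0.93 and -0.74. Their summed level was 5095 RPM in CxH, 5314 in MH, 9679 in CxWT and 7839 in MWT. The part of these cells in the S100b ratios was not tested.

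Mertk, the receptor kinase with which astrocytes and microglia engulf synapses and debris, was the lowest of the 10 genes per kilobase and was called in 4 pairs. It lies on chromosome 2 from 128524692 to 128628630 (plus strand). It had 41.6 RPM (39.5 to 43.6) in CxH, 35.7 (33.8 to 37.7) in MH, 20.4 (18.9 to 22.0) in CxWT and 20.8 (19.2 to 22.6) in MWT. CxWT and MWT overlapped and lay below MH and CxH. The log2 ratio was 1.03 ± 0.066 in CxH vs. CxWT, 0.78 ± 0.071 in MH vs. MWT, 0.81 ± 0.068 in MH vs. CxWT and 1.0 ± 0.069 in CxH vs. MWT, and each was a call. With the correction for GC content and length these were 1.09, 0.82, 0.80 and 1.11. The exact test with an assumed variation between pools did not call Mertk in MH vs. MWT or in MH vs. CxWT, and with a threshold of 1 it was called in CxH vs. CxWT alone.

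Mertk also belongs to microglia. The 14 microglia markers in the table had ratios above 0 in Cx without exception, with 9 called up and a median of 0.88, and in M 4 were called down and none up, with a median of -0.45. In M, 10 of them were below 0, and 4 (Tmem119, Csf1r, P2ry12 and Cx3cr1) were above 0, at 0.02 to 0.48. Their summed level was 892 RPM in CxH, 555 in MH, 490 in CxWT and 769 in MWT. In MH vs. CxWT none of the markers was called, their median was 0.19, and Mertk had 0.81. The part of microglia in the Mertk ratios was not tested.

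Of 12 other phagocytic receptors and bridging molecules, 3 were called up and 1 down in CxH vs. CxWT, and 2 up and 2 down in MH vs. MWT, with medians of 0.14 and -0.16. Tyro3, a receptor of the same family as Mertk that neurons express strongly, had 180.3 RPM in CxH, 146 in MH, 67.2 in CxWT and 55.8 in MWT, and was called up in both areas at 1.42 ± 0.035 and 1.38 ± 0.041. Mfge8, a secreted protein that bridges phosphatidylserine to integrins, was called up at 1.33 ± 0.032 and 1.26 ± 0.037. Pros1, a ligand of Mertk, was called down in M at -1.19 ± 0.101 and had 0.18 ± 0.102 in Cx. Gulp1, an adaptor of engulfment, was called down in both at -1.39 ± 0.185 and -1.03 ± 0.176, on 87 to 199 reads.

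**Figure D3:**
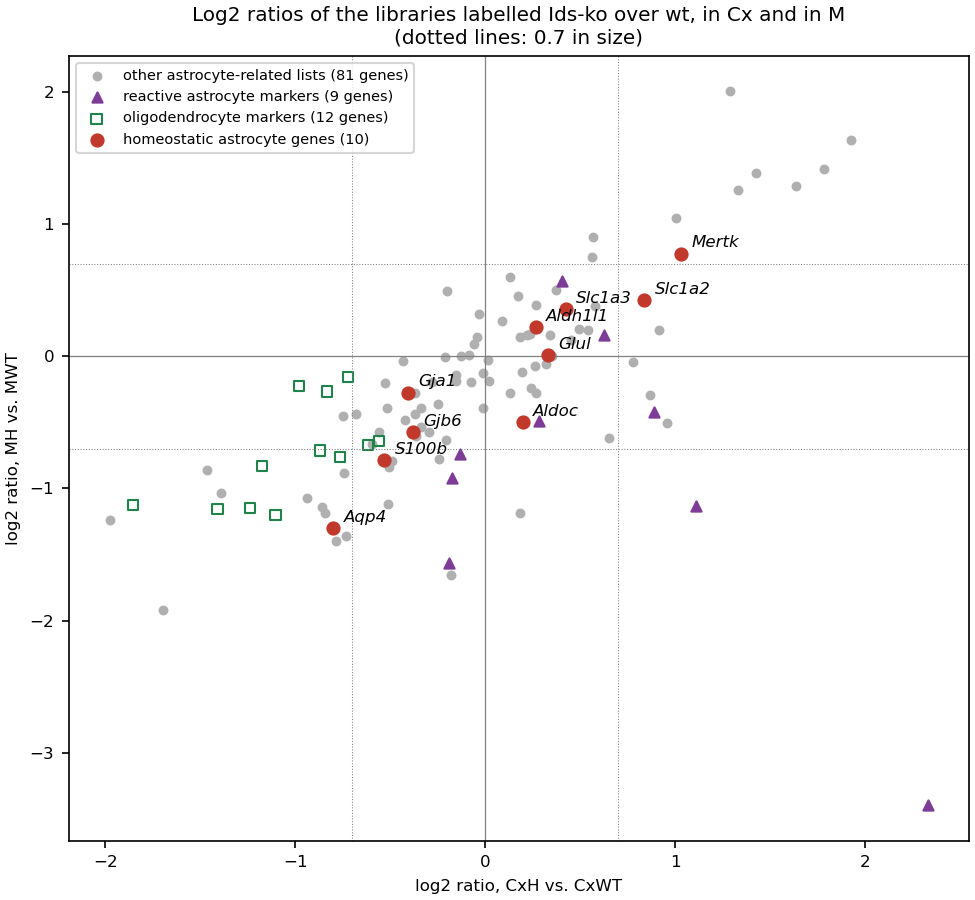
Each point is a gene, with its log2 ratio in CxH vs. CxWT on the x axis and in MH vs. MWT on the y axis, for the 10 homeostatic astrocyte genes (red, named), 5 other astrocyte-related lists (grey), reactive astrocyte markers (triangles) and oligodendrocyte markers (squares). The red points run from Aqp4 at lower left (-0.80 and -1.30) to Mertk at upper right (1.03 and 0.78), while Lcn2 and Gfap stand at lower right.

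Of 24 further genes of astrocyte identity and surface, 1 was called up and 2 down in CxH vs. CxWT, and 2 up and 5 down in MH vs. MWT, with medians of -0.20 and -0.10. Chrdl1, a secreted protein of upper-layer cortical astrocytes, was called up in both areas at 1.92 ± 0.130 and 1.64 ± 0.134, from 4.52 to 17.1 RPM. Paqr6 was called down in both at -1.98 ± 0.140 and -1.24 ± 0.167. Slc39a12 was called down in both at -0.73 ± 0.046 and -1.36 ± 0.046, and Slc14a1, a urea transporter, in M at -1.12 ± 0.088.

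Of the 9 reactive astrocyte markers in the table, 3 were called up and none down in Cx, and none up and 5 down in M. Opposite signs in Cx and M were found for 4 of them (Gfap, Lcn2, Osmr and Aspg), while Vim and S1pr3 were above 0 in both and Serpina3n, Cp and Emp1 below 0 in both. Gfap, the intermediate filament of astrocytes, had 603 RPM in CxH, 253 in MH, 280.1 in CxWT and 555 in MWT, and its ratio was 1.11 ± 0.018 in Cx and -1.13 ± 0.019 in M. Lcn2, a secreted lipid carrier of reactive astrocytes, was called up in Cx at 2.33 ± 0.244 and down in M at -3.40 ± 0.275. Of the 10 homeostatic genes none was called in opposite directions. The paper counted few such genes in all, so this does not set the 10 apart. Per kilobase, Gfap over Aqp4 was 8.59 in CxH, 3.43 in MH, 2.29 in CxWT and 3.04 in MWT.

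**Figure D4:**
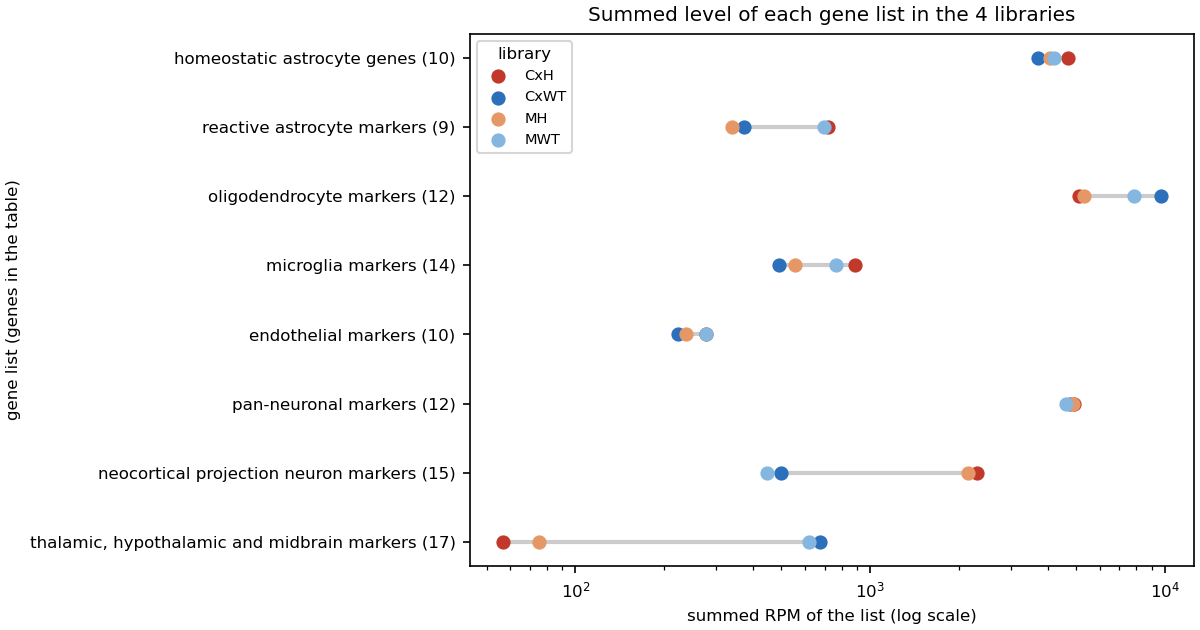
Each row is a gene list, with the summed RPM of its genes on the x axis (log scale), 1 point for each library. The 10 homeostatic astrocyte genes lie between 3711 and 4671 RPM. Pan-neuronal markers span less, from 4620.0 to 4911 RPM, and thalamic, hypothalamic and midbrain markers more, from 56.9 to 678 RPM.

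The summed level of the 10 genes was 4671 RPM in CxH, 4060.4 in MH, 3711 in CxWT and 4215 in MWT. Slc1a2, Glul and Aldoc made up 32.8%, 25.8% and 19.5% of it in CxH. The median log2 RPM of the 10 genes ran otherwise, at 7.18 in CxH, 7.27 in MH, 7.79 in CxWT and 8.06 in MWT. Endothelial markers, which come with the vessels that endfeet cover, summed to 278 RPM in CxH and in MWT, 223 in CxWT and 237 in MH. Pan-neuronal markers summed to between 4620.0 and 4911 RPM. The level of other cells in the libraries, and its part in the ratios of the 10 genes, was not tested.

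The ratios of all genes moved with transcript GC content. Spearman's rho over 10706 genes ran from 0.163 in MH vs. CxWT to 0.686 in CxH vs. MWT, and was 0.461 and 0.486 in the pairs of Cx and of M. Genes are not independent replicates. Of the 10 genes Aqp4 had the lowest GC content, 40.7%, with 5.75% of the genes in the fit below it, and Aldh1l1 the highest, 54.4%. After a fit on GC content and length was subtracted, Slc1a2 had 0.94 in CxH vs. CxWT and 0.36 in MH vs. MWT, and Slc1a3 had 0.54 and 0.48. Gja1 moved to -0.18 and 0.01, and Aldh1l1 to 0.10 and -0.08, so that each had no clear direction in M. Corrected in this way, 2 of the 10 genes (Slc1a2 and Mertk) were called up in Cx and none down, while in M Mertk was called up and Aqp4 down. Over all 12231 genes corrected, calls also became fewer, with 941 up (from 1201) and 1182 down (from 1457) between the libraries of Cx, and 985 up (from 1556) and 1185 down (from 1614) between those of M.

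**Figure D5:**
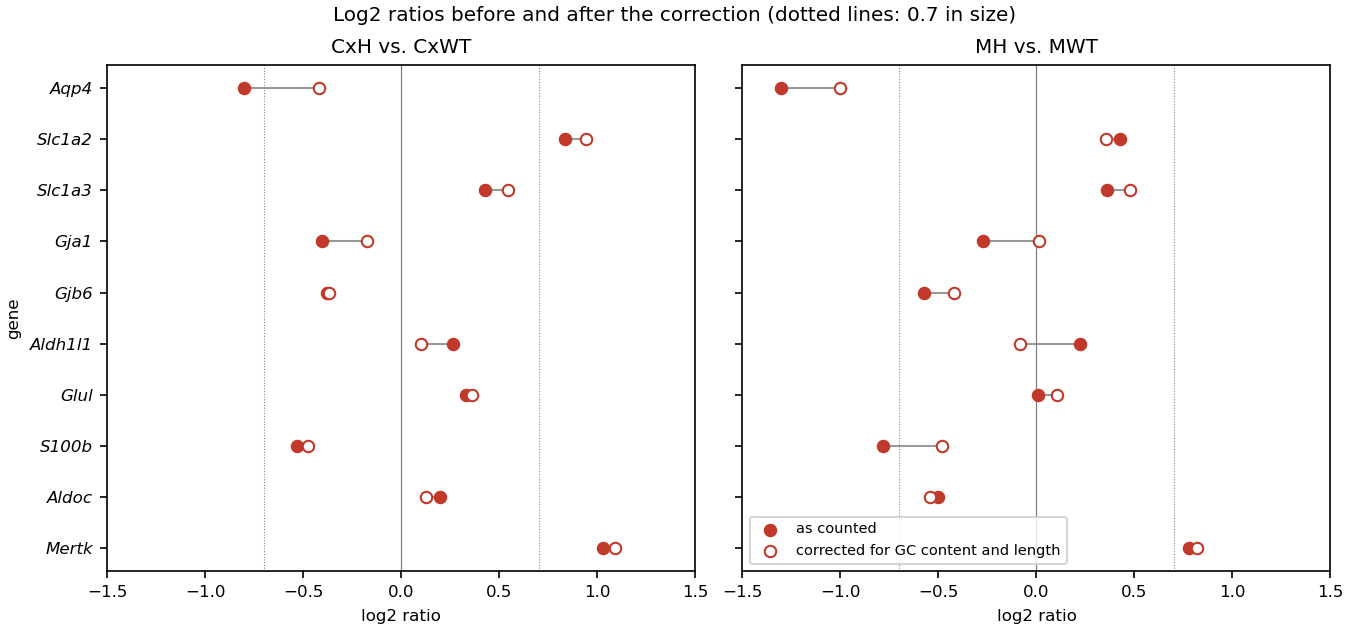
Points give the log2 ratio of each gene (x axis) in CxH vs. CxWT (left) and MH vs. MWT (right), as counted (filled) and after the correction for GC content and transcript length (open). Mertk stays above 0.7 in both panels, and Aqp4 moves from -0.80 to -0.42 on the left and from -1.30 to -1.0 on the right.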

How the data were processed

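Poly(A) RNA of each condition was sequenced as 1 library on a SOLiD system. The authors aligned the reads to mm9 with PASS, allowing 2 mismatches and no gaps, and the deposited counts are the uniquely assigned reads per gene, not normalized, of genes with over 50% of their length covered. The gene annotation behind these counts, and whether strand was used, are not given in the sources used here. The 10 genes and all gene lists were chosen with earlier results of these data known.

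RPM are counts over the aligned reads of each library. For ratios a count of 0 was set to 1, and every gene of the table was tested. Beside the 10 genes and Ids, at most 4 genes of a list were named, those called in the most pairs and then with the largest range, with at least 100 reads in a library. Beyond this rule, further reactive astrocyte, microglia and ependymal or choroid plexus markers were named after their values were seen, to show members that went another way. Ratios of 1 astrocyte gene over another were chosen after their values were seen. Gene symbols came from RefSeq, and positions, lengths and GC content from GENCODE vM1, with 12422 genes matched by symbol. Copies were searched with BLAST 2.17.0 (95% identity, 50 bases). Alternatives were other scalings (column totals, TMM, DESeq2 size factors), a threshold of 1, Benjamini-Hochberg adjustment, an exact test with an assumed coefficient of variation of 0.2, 0.5 added to each count, a filter at 100 reads, and a quadratic fit on GC content and length. Python 3.11.15, scipy 1.17.1, edgeR 4.0.16 and DESeq2 1.42.0 were used, and the steps were tested on simulated data. Columns left unused numbered 0, and the raw reads were not analysed here.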

Additional observations from a re-analysis of the deposited data

Results flagged for a closer look

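Each of the following ratios was picked out because the same contrast had opposite signs in the settings in which it could be taken, each ratio being over 2 counting errors in size. With 1 library per condition the differences were not tested, and each ± is the counting error of a ratio. Aldoc, the glycolytic aldolase C, had a log2 ratio of the library labelled Ids-ko over that labelled wt of 0.20 ± 0.012 in Cx and -0.50 ± 0.013 in M. Ids itself had -1.39 and 1.24 in these pairs.

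For the libraries labelled Cx over those labelled M, 4 genes met this in CxH vs. MH against CxWT vs. MWT, where Ids had -1.44 and 1.19. The signs of Gja1, Gjb6 and Mertk also differed, with at least 1 ratio of each within 2 counting errors of 0. In CxH vs. MH, Aldoc had 0.46 ± 0.012, and in CxWT vs. MWT it had -0.24 ± 0.012. Slc1a2, the glutamate transporter GLT-1, had 0.19 ± 0.009 and -0.22 ± 0.012 in the same pairs. Glul, the glutamine synthetase, had 0.26 ± 0.010 and -0.068 ± 0.012. S100b, the calcium-binding protein, had 0.077 ± 0.031 and -0.17 ± 0.027. With the correction for GC content and length, the second ratio became 0.01 for Glul and 0.05 for S100b, so that their signs no longer differed.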

How the results depend on the processing

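With a log2 threshold of 1, the number of the 10 genes called fell from 3 to 1 in CxH vs. CxWT (Mertk), from 3 to 1 in MH vs. MWT (Aqp4), from 3 to 1 in CxH vs. MWT (Aqp4) and from 2 to 0 in MH vs. CxWT. The exact test with an assumed coefficient of variation of 0.2 left 1 in MH vs. MWT and 0 in MH vs. CxWT. In MH vs. CxWT, column totals left 1, and so did the correction for GC content and length, while over all genes 859 up and 1049 down and 729 and 1072 were called. The other counts of calls among the 10 genes stayed within 1.5 times. Calls over all genes fell as well with a threshold of 1, to 691 up and 710 down in CxH vs. CxWT, 869 and 773 in MH vs. MWT, 109 and 34 in CxH vs. MH, 1107 and 854 in CxH vs. MWT, 194 and 101 in CxWT vs. MWT, and 497 and 567 in MH vs. CxWT. The exact test gave 881 and 983, 1164 and 1083, 151 and 40, 1477 and 1274, 359 and 128, and 618 and 760 in the same order. Over all genes, the split of calls moved by over 10 percentage points under some scalings. In CxH vs. CxWT it went from 1201 up and 1457 down to 1447 and 1135 with TMM and to 1429 and 1150 with DESeq2 size factors, and in MH vs. CxWT from 814 and 1129 to 1013 and 855 and to 1016 and 852. With column totals it went from 309 and 135 to 257 and 183 in CxH vs. MH, from 690 and 268 to 480 and 390 in CxWT vs. MWT, and from 1980 and 1915 to 1609 and 2504 in CxH vs. MWT. The correction for GC content and length, over 12231 genes, left 207 and 160 in CxWT vs. MWT, 958 and 943 in CxH vs. MWT and 178 and 108 in CxH vs. MH. The median ratio of all genes moved most in MH vs. CxWT, from -0.11 to -0.002 with DESeq2 size factors, where that of the 10 genes moved from -0.11 to -0.005. With column totals in CxH vs. MWT, the median of all genes moved from -0.04 to -0.15 and that of the 10 genes from 0.11 to 0.002.

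Of 300 ratios of the 10 genes under the 5 alternatives that change a ratio, 20 changed sign, none of them a call, and the largest of these was 0.37 in size as counted. Calls lost numbered 9 and calls gained 3. The losses were those of Aqp4 in MH vs. CxWT under 3 scalings and the correction (-0.696 to -0.617), of S100b in CxH vs. MWT under TMM, DESeq2 size factors and the correction (-0.67 to -0.42), and of Aqp4 in CxH vs. CxWT (-0.42) and S100b in MH vs. MWT (-0.48) under the correction. The gains were those of Slc1a2, in MH vs. CxWT under TMM and DESeq2 size factors (0.75) and in CxH vs. MWT under the correction (0.74). For the losses and gains the cause was not tested. The labels give no replicate numbers and each condition has 1 library, so no fit paired by replicate was made. An additive fit of genotype and area over the 4 libraries, which would leave 1 residual degree of freedom, was not run. Depth does not limit these genes, while variation between mice is unknown.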

Other observations

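In CxH vs. MWT, with Ids at a like level, calls up and calls down were 13 each among the 81 genes of the 5 other astrocyte-related lists, or 16% each, and in MH vs. CxWT they were 7 and 12, or 8.64% and 14.8%, beside 15.6% and 15.1%, and 6.41% and 8.89%, of all genes. The following genes were named for being called in many pairs, so that their ratios are a description. In CxH vs. MWT, both low in Ids, Slc6a11 had a log2 ratio of -1.57 ± 0.025, Kcnj10 -0.84 ± 0.020, Mfge8 1.54 ± 0.036 and Chrdl1 1.78 ± 0.133. In MH vs. CxWT, both high in Ids, the same genes had -2.05 ± 0.027, -1.19 ± 0.021, 1.04 ± 0.033 and 1.78 ± 0.131. Gfap, by contrast, had 0.12 ± 0.015 and -0.14 ± 0.021 in these pairs, and 1.11 ± 0.018 and -1.13 ± 0.019 in CxH vs. CxWT and MH vs. MWT.

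Of the same 81 genes, 7 were called up and 10 down in both areas, or 8.64% and 12.3%, where 6.23% and 6.46% of all genes were. Of the 10 choroid plexus and ependymal genes, 4 were called up and 4 down in CxH vs. CxWT, and 3 up and 5 down in MH vs. MWT. Ttr, the transthyretin of the choroid plexus, had 20682 reads in CxH and 21768 in MH, against 3784 in CxWT and 6390 in MWT. Prlr, the prolactin receptor, went the other way, with 156 and 379 reads against 808 and 761, and Foxj1, Ccdc153 and Rsph1 were also called down in both areas.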
